A study of Mus musculus with 20 samples.

Results

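The cytochrome P450 genes of families 1 to 3 were followed in the liver mRNA of C57BL/6NTac mice. Protein-coding genes whose symbol places them in one of these families (Cyp1, Cyp2 or Cyp3 and a subfamily letter) numbered 60 among the 32400 genes of the deposited count table. Of these, 42 were chosen by their measured level, a mean of at least 1 CPM (counts scaled to a common library size) in at least 1 of the 3 groups, and these 42 are described here by subfamily. The other 18 lay below that level in every group and include every measured gene of the Cyp2s, Cyp2t and Cyp2w subfamilies. Near that level, Cyp1a1, with a highest group mean of 1.01 CPM, and Cyp3a16, with 1.19 CPM, were just inside, and Cyp2d12, with 0.801 CPM, and Cyp3a44, with 0.759 CPM, were just outside. Of the 42 genes, 32 reached the level in every group, and the other 10 reached it in 1 or 2 groups. For those 10, a higher level in a group that reached it is partly fixed by the choice of genes. They are Cyp1a1, Cyp1b1, Cyp2c69, Cyp2g1 and Cyp3a57, with 1 group, and Cyp2a4, Cyp2b10, Cyp2b13, Cyp3a16 and Cyp3a41b, with 2 groups. All 42 passed the filter on low counts and were tested.

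The HFHF Flcn gRNA group (n = 8) was put on a high-fat, high-fructose diet and given a guide RNA against Flcn with an adeno-associated virus of serotype AAV8. The HFHF control group (n = 7) ate the same diet and received the vehicle PBS. Mice of the chow control group (n = 5) had no treatment and ate standard chow. Flcn encodes folliculin, a regulator of nutrient signalling at the lysosome. All libraries came from bulk liver RNA of the same substrain, and the labels give no genotype, sex, age or length of diet. No label names the nuclease that the guide works with, the promoter that drives it or the cells it reaches. Because the HFHF control group received vehicle and not a virus, an effect of the virus and one of the guide cannot be told apart. Chow animals received no vehicle, so diet and vehicle cannot be told apart either.

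P450 enzymes of these families are heme proteins of the endoplasmic reticulum that insert an oxygen atom into drugs, pollutants, steroids, bile acids, vitamins and fatty acids, with electrons from NADPH-cytochrome P450 oxidoreductase and cytochrome b5. In the liver they are made mainly by hepatocytes, many of them most strongly around the central vein, and their genes are switched on by nuclear receptors and the aryl hydrocarbon receptor (AHR) when foreign compounds or bile acids arrive. Several mouse members also differ between the sexes under the control of growth hormone.

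The libraries held 13974379 to 19586576 counts in the gRNA group, 15244760 to 18194089 in HFHF control and 14131976 to 16285324 in chow control. Whether every library is a different mouse is not stated in the labels. A p-value here sets a group difference against the spread among libraries, and would be too small if libraries shared a mouse. Flcn mRNA was at 17.8 ± 2.40 CPM in gRNA livers (SD, n = 8), 20.7 ± 2.98 CPM in HFHF control livers (SD, n = 7) and 22.2 ± 6.03 CPM in chow livers (SD, n = 5), with a log2 fold change of -0.22 for gRNA over HFHF control (SE 0.12, adjusted p = 0.14, edgeR's quasi-likelihood test). Small insertions or deletions at a guide's target need not lower the transcript, so mRNA level is a weak check of the label. The title of gRNA replicate 8 carries another second number than all other titles, and values without it are part of the leave-one-out ranges. Hepatocyte markers such as Alb, Apoa1 and Ttr were abundant in every library, and the 9 markers of that list summed to 68033 to 101443 CPM in gRNA, 63736 to 86316 CPM in HFHF control and 91035 to 112630 CPM in chow. The 3 adipocyte markers summed to at most 0.151 CPM in any library, and Lep was at 0 in all of them.

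Summed P450 mRNA was lower on the high-fat, high-fructose diet than on chow and lay between those groups with the gRNA. The 42 genes summed to 14934, 20093 and 22587 CPM (lowest, median and highest library) in the gRNA group, to 9414, 12519 and 18053 CPM in HFHF control and to 22833, 26781 and 27886 CPM in chow. With this scaling no HFHF library reached the lowest chow library, while the gRNA and HFHF control libraries overlapped. With raw library sizes the gRNA libraries reached 21880 CPM and the lowest chow library was at 20766 CPM, so those groups overlapped. Per kilobase of exon, Cyp2e1 was the most abundant of the 42 and Cyp3a11 the next in each group. As a percentage of the summed hepatocyte markers, the P450 sum was 20.5 to 24.6% in gRNA, 13.8 to 21.2% in HFHF control and 23.9 to 26.1% in chow. In bulk RNA, fewer cells of a type and less RNA per cell cannot be told apart.

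**Figure D1:**
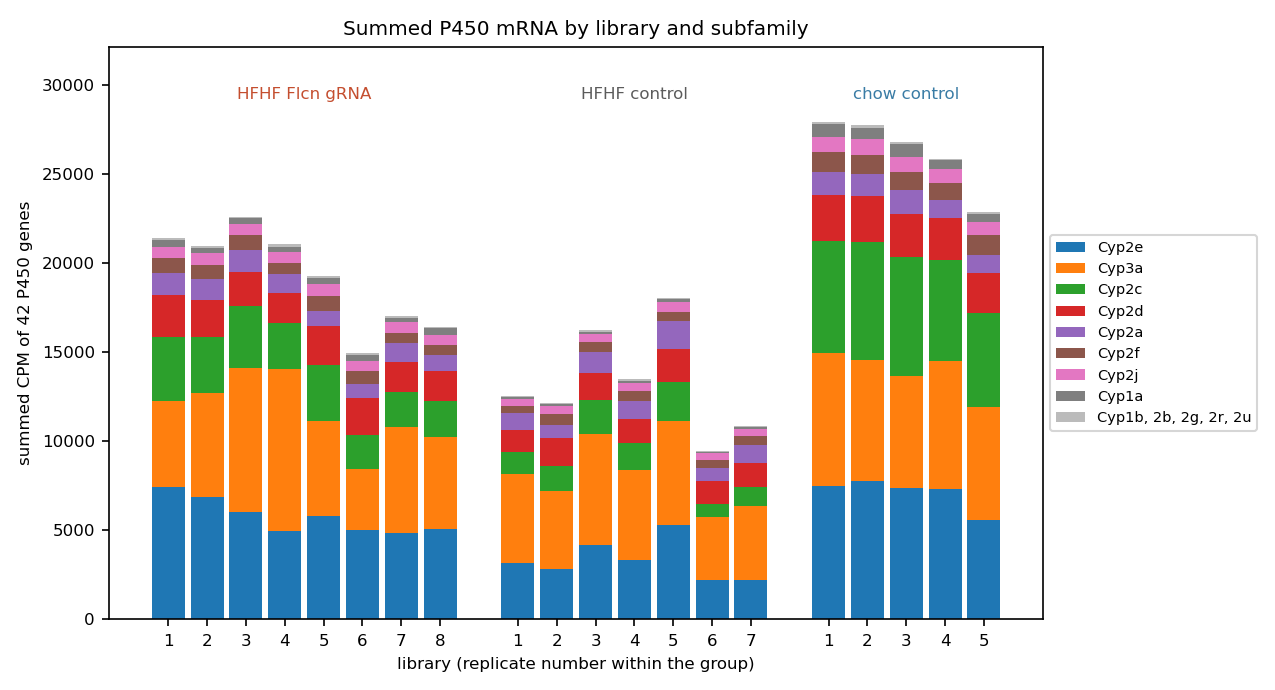
Summed CPM of the 42 P450 genes in each library, stacked by subfamily (vertical axis, CPM, linear from 0; horizontal axis, libraries by replicate number within gRNA, HFHF control and chow). The HFHF control bars reach 9414 to 18053 CPM, the gRNA bars 14934 to 22587 CPM and the chow bars 22833 to 27886 CPM, and the green Cyp2c part is widest in chow.

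The makeup of the P450 pool also differed between groups. Cyp2c transcripts took 11.7 to 17.0% of the sum in gRNA livers, 7.86 to 12.1% in HFHF control and 21.8 to 24.9% in chow, so both HFHF groups lay below every chow library. Cyp3a transcripts took 22.4 to 43.3% in gRNA, 32.5 to 39.9% in HFHF control and 23.6 to 27.9% in chow, and here all HFHF control libraries lay above all chow libraries. That is a share of a smaller sum. In CPM, summed Cyp3a was 3461 to 9133 in gRNA, 3502 to 6219 in HFHF control and 6309 to 7521 in chow. By that level every HFHF control library lay below every chow library. With raw library sizes those groups overlapped (4041 to 6604 CPM and 5620 to 6793 CPM). Cyp2e1 alone took 23.4 to 34.8% in gRNA, 20.3 to 29.2% in HFHF control and 24.3 to 28.3% in chow, with overlap of all groups.

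Gene by gene, more P450 transcripts were higher than lower in gRNA livers relative to HFHF control livers. Compared with HFHF control, 21 of the 42 genes rose with the gRNA, Cyp1b1 and Cyp2a4 fell and 19 did not pass the test. Of all genes tested, 38.6% were called in this comparison, 19.6% higher and 19% lower. The median log2 fold change was 0.39 over the 42 genes and 0.01 over all genes. Of the 32 genes that reached 1 CPM in every group, 17 rose and 15 did not pass. The gRNA libraries were all higher than the HFHF control libraries in 2 of the 42 genes, Cyp1a2 and Cyp2j6, and all lower in Cyp1b1, against 5.04% and 6.01% of all genes. With upper-quartile scaling 37.8% of the called genes were higher, against 50.7% with the scaling used, and 18 of the 42 P450 genes then rose and 2 fell.

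In HFHF control livers 29 of the 42 genes were lower than on chow, Cyp1b1, Cyp2a4, Cyp2b13 and Cyp2c38 were higher and 9 did not pass. Of all genes, 57% were called, 28.1% higher and 28.9% lower. The median log2 fold change was -0.79 over the 42 genes and -0.01 over all genes, and of the 32 genes at 1 CPM in every group 26 fell and 1 rose. All HFHF control libraries lay below all chow libraries in 26 of the 42 genes, against 18.1% of all genes, and above them in 2, against 18.8%. Upper-quartile scaling made 60.7% of the called genes higher, against 49.4%, and left 28 P450 genes lower and 4 higher.

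Against chow, gRNA livers still had 23 P450 genes lower and 3 higher (Cyp1b1, Cyp2b13 and Cyp3a57), and 16 did not pass. Of all genes, 42.6% were called, 20.9% higher and 21.7% lower. The median was -0.38 over the 42 genes and 0.00 over all genes. Of the 32 genes at 1 CPM in every group, 20 were lower, 0 were higher and 12 did not pass. Every gRNA library lay below every chow library in 17 of the 42 genes, against 8.98% of all genes, and above in Cyp3a57, against 9.01%. The comparisons of gRNA with HFHF control and of HFHF control with chow share the HFHF control libraries, and both comparisons with chow share the chow libraries, so their values are set side by side below and not correlated.

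**Figure D2:**
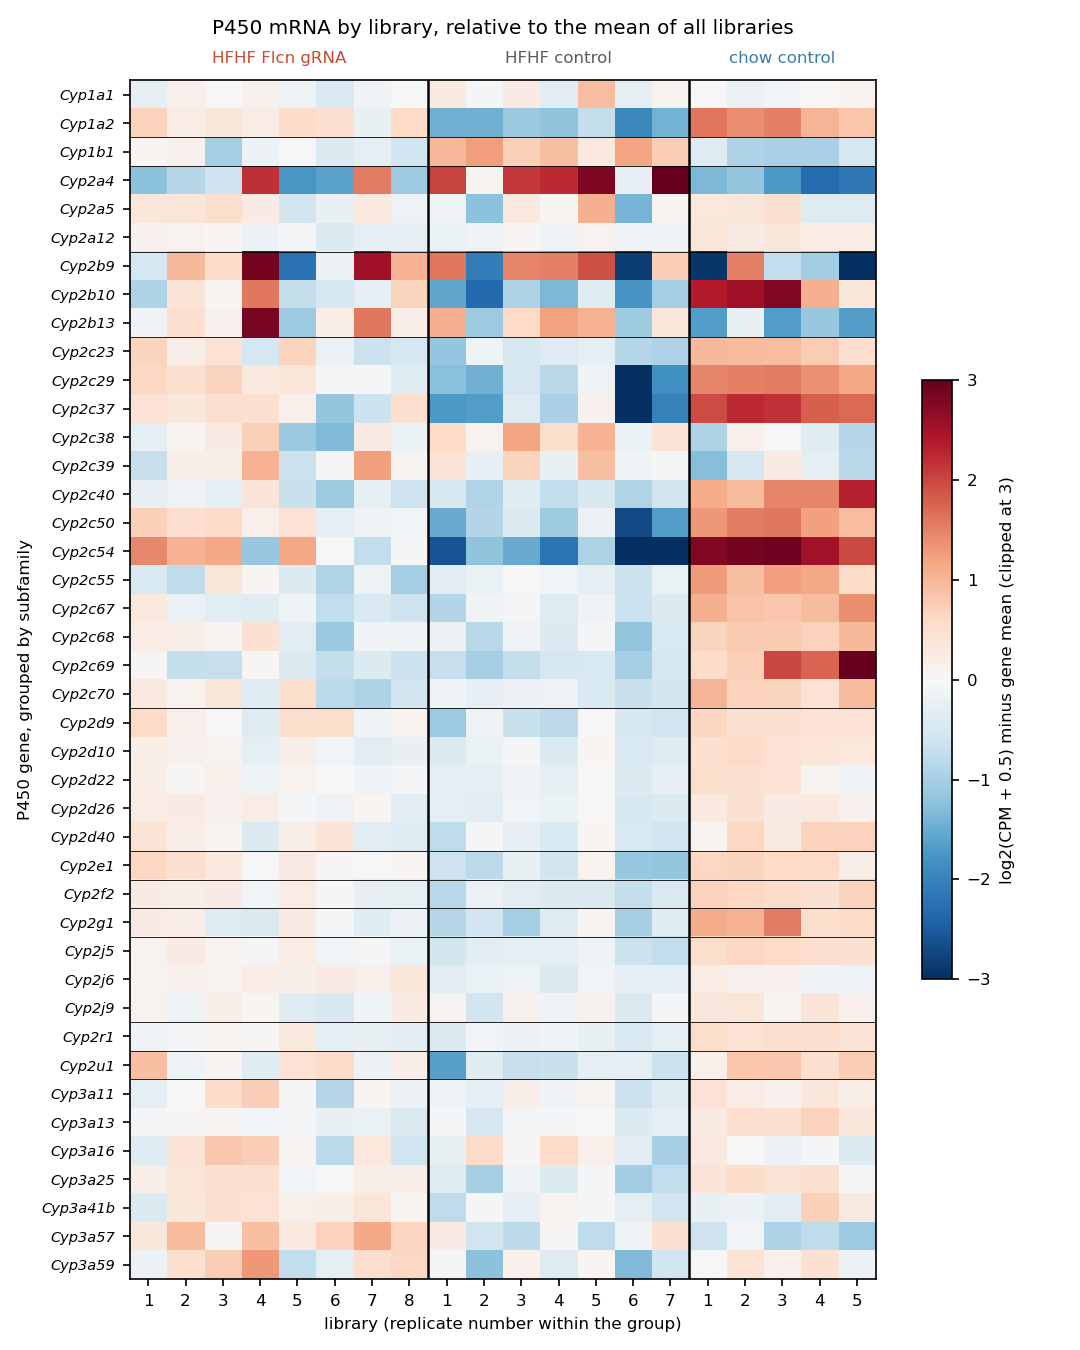
Each of the 42 P450 genes (rows, by subfamily) in each of the 20 libraries (columns, gRNA, HFHF control and chow from left to right), as log2(CPM + 0.5) minus the gene's mean over all libraries, red above and blue below it, with colours clipped at 3. The chow columns are red for most Cyp2c, Cyp2d, Cyp2e1, Cyp2f2 and Cyp2j5 rows, and Cyp2a4, Cyp2b9 and Cyp2b13 run against that pattern, with gRNA replicates 4 and 7 redder than the rest of their group.

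**Figure D3:**
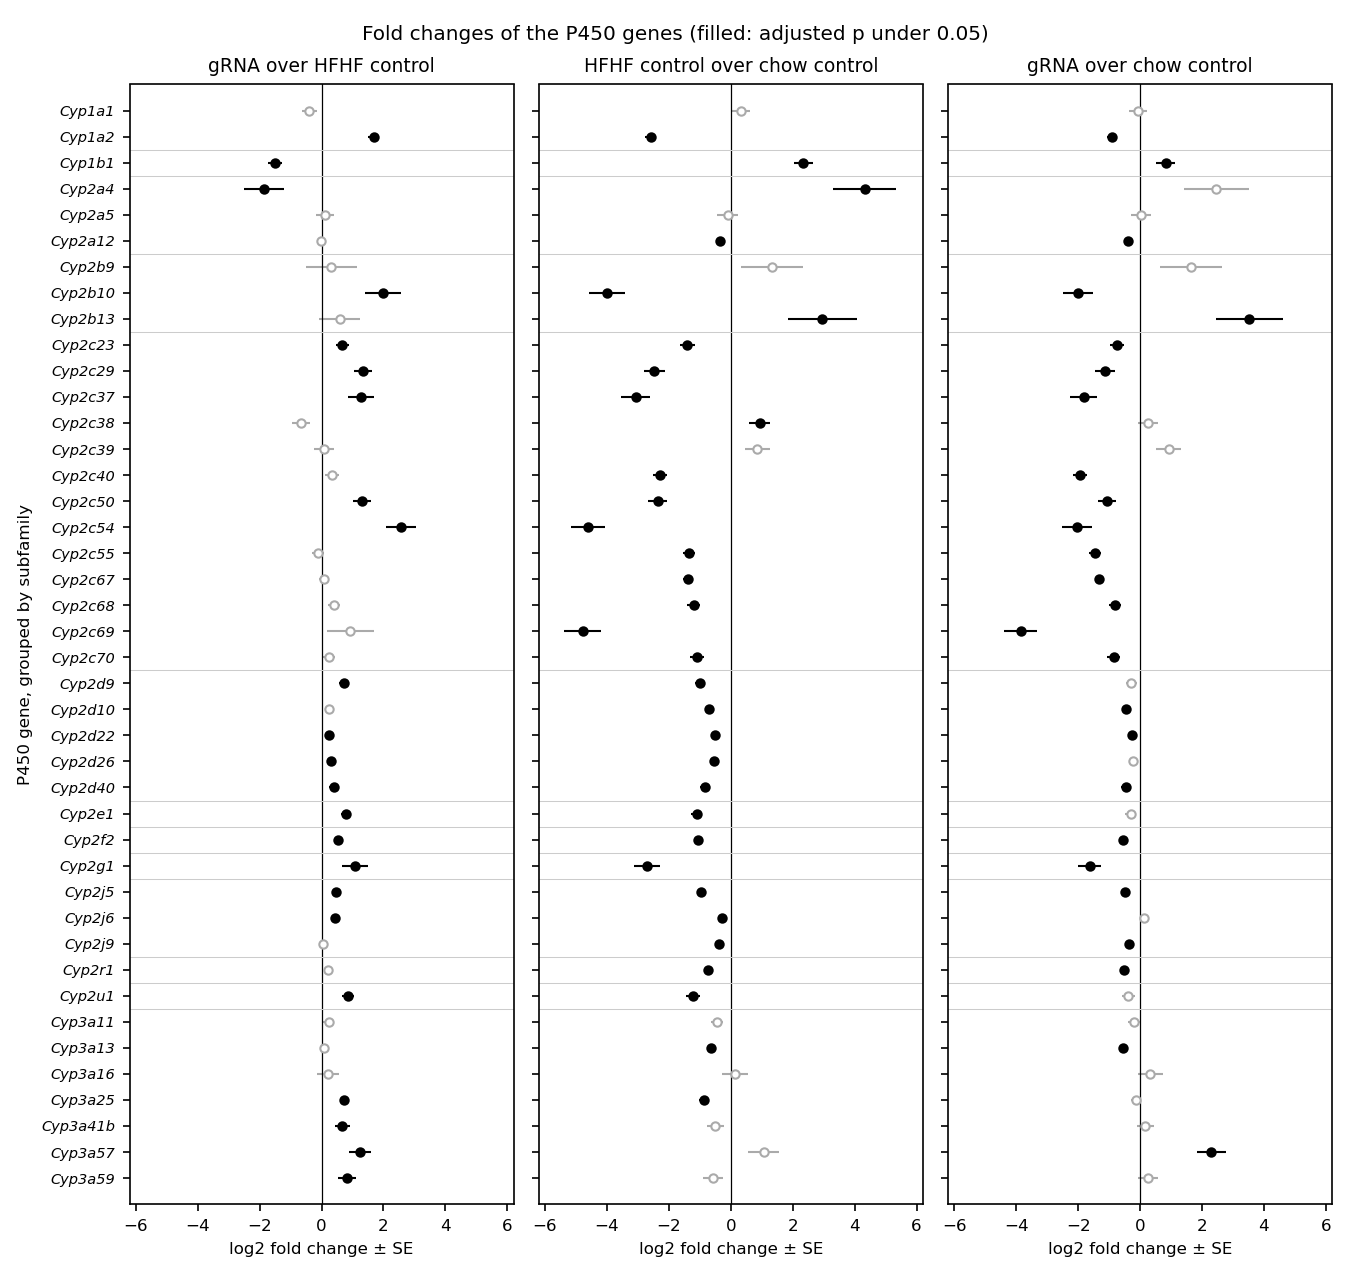
Log2 fold changes with their SE for the 42 P450 genes in the 3 comparisons (gRNA over HFHF control, HFHF control over chow, gRNA over chow), with filled points at an adjusted p under 0.05. In the left panel 21 filled points lie right of 0 and 2 left of it, in the middle panel 4 right and 29 left, and in the right panel 3 right and 23 left.

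Family 1 holds the AHR-driven genes. Cyp1a2 (chromosome 9, 57676937 to 57683703, minus strand, GRCm38), which oxidises caffeine and arylamines in pericentral hepatocytes, was at 212, 335 and 400.2 CPM (lowest, median and highest) in gRNA livers, at 64.6, 92.4 and 149.8 CPM in HFHF control livers and at 749, 647, 706, 504 and 443 CPM in the 5 chow livers. The 3 groups did not overlap, with HFHF control lowest and gRNA between it and chow. Its log2 fold change was 1.68 for gRNA over HFHF control (SE 0.16, adjusted p = 1.75e-07, edgeR's quasi-likelihood test), -2.59 for HFHF control over chow (SE 0.18, adjusted p = 7.93e-10) and -0.91 for gRNA over chow (SE 0.17, adjusted p = 0.000236). The exact permutation p was 0.000155, 0.00126 and 0.000777 in these comparisons, in each case the smallest that the group sizes allow. Its neighbour Cyp1a1, the classic AHR-induced gene, was at 0.765 ± 0.178 CPM with the gRNA, 1.01 ± 0.493 CPM in HFHF control and 0.796 ± 0.0982 CPM on chow, and passed no test.

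Cyp1b1 (chromosome 17, 79701537 to 79715061, minus strand), an AHR-responsive oxidase of estrogens and retinoids found mostly outside hepatocytes, moved the other way. Its level was 0.352, 0.977 and 1.37 CPM in gRNA livers, 1.62, 2.72 and 3.60 CPM in HFHF control livers and 0.809, 0.398, 0.378, 0.371 and 0.700 CPM in chow livers. HFHF control stood above both other groups without overlap. The log2 fold change was -1.51 for gRNA over HFHF control (SE 0.23, adjusted p = 2.4e-05, edgeR's quasi-likelihood test), 2.34 for diet (SE 0.30, adjusted p = 1.08e-06) and 0.82 for gRNA over chow (SE 0.32, adjusted p = 0.0422). That last call was lost, with adjusted p up to 0.0916, when gRNA replicate 1, 2, 4, 5 or 7 or chow replicate 2, 3 or 4 was left out, and in the fit of only those groups (adjusted p = 0.0583). Markers of hepatic stellate cells moved the same way: their 8 genes summed to 296 to 386 CPM in gRNA, 512 to 613 CPM in HFHF control and 221 to 272 CPM in chow, and 6 of 8 fell with the gRNA while 8 of 8 rose on the diet. Over all genes 19% fell with the gRNA and 28.1% rose on the diet. The part of stellate cells in the Cyp1b1 result was not tested.

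In the Cyp2a subfamily, on chromosome 7, a single gene stood out. Cyp2a4 (26307169 to 26315088, plus strand), a steroid 15-alpha-hydroxylase that is higher in female mouse liver, was at 0.887, 1.89 and 20.9 CPM in gRNA livers, at 3.41, 19.8 and 38.6 CPM in HFHF control livers and at 1.32, 1.59, 0.908, 0.446 and 0.545 CPM in chow livers. HFHF control lay above chow without overlap, while the gRNA group overlapped both, with replicates 4 and 7 (20.9 and 13.0 CPM) apart from the other 6 libraries. The log2 fold change was -1.86 for gRNA over HFHF control (SE 0.66, adjusted p = 0.0338, edgeR's quasi-likelihood test) and 4.32 for diet (SE 1.01, adjusted p = 0.0014), and gRNA over chow (2.47, SE 1.04) did not pass, though it did without gRNA replicate 5 (adjusted p = 0.0482) and in DESeq2's Wald test (adjusted p = 0.00416). The gRNA call was -2.60 (adjusted p = 0.00364) without gRNA replicate 4 and was lost, with adjusted p up to 0.0803, without gRNA replicate 1, 2, 3, 5, 6 or 8 or HFHF control replicate 5 or 7, without the low-count filter and in the fit of only the 2 groups. Cyp2a5, the coumarin 7-hydroxylase, did not pass in any comparison, at 500.1 ± 118 CPM with the gRNA, 461 ± 259 CPM in HFHF control and 494 ± 137 CPM on chow. Reads of Cyp2a4 and Cyp2a5 are uncertain, since 37.1% and 36.2% of their 51-base windows recur in other genes. Cyp2a12, a bile acid hydroxylase, was lower than chow in both HFHF groups (-0.38, SE 0.09, with the gRNA and -0.36, SE 0.09, in HFHF control) and did not pass between them.

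The Cyp2b genes, also on chromosome 7, went different ways. Cyp2b10 (25897620 to 25926624, plus strand), the standard target of the constitutive androstane receptor CAR, was at 0.975, 2.16 and 7.91 CPM in gRNA livers, at 0.0610, 0.605 and 1.68 CPM in HFHF control livers and at 14.1, 15.9, 18.7, 5.35 and 3.03 CPM in chow livers. HFHF control lay below chow without overlap, and the gRNA libraries overlapped both groups. Its log2 fold change was 1.99 for gRNA over HFHF control (SE 0.58, adjusted p = 0.0104, edgeR's quasi-likelihood test), -3.98 for diet (SE 0.58, adjusted p = 1.24e-05) and -1.99 for gRNA over chow (SE 0.49, adjusted p = 0.00309). Cyp2b13 (26061497 to 26096197, plus strand), a female-predominant gene in mouse liver, was at 0.253, 1.31 and 11.1 CPM in gRNA livers, at 0.244, 1.92 and 3.18 CPM in HFHF control livers and at 0, 0.863, 0, 0.223 and 0 CPM in chow livers. All groups overlapped. Cyp2b13 was higher than chow in HFHF control (2.95, SE 1.12, adjusted p = 0.0313, edgeR's quasi-likelihood test) and with the gRNA (3.54, SE 1.08, adjusted p = 0.0136) and did not pass between the HFHF groups (0.58, SE 0.67). Without chow replicate 2 the Cyp2b13 value was 4.89 for diet and 5.46 for gRNA over chow, and without gRNA replicate 4 it was 2.75 for gRNA over chow and -0.21 for gRNA over HFHF control. The diet call was lost without chow replicate 1, 3, 4 or 5 or HFHF control replicate 4 (adjusted p up to 0.0682), and without the low-count filter (adjusted p = 0.0535). At these low counts fitted folds depend on the small count added in the fit. Cyp2b9, another female-predominant gene, averaged 40.4 ± 41.3 CPM with the gRNA, 32.5 ± 22.6 CPM in HFHF control and 12.6 ± 18.3 CPM on chow and passed no test, but without chow replicate 2 it was higher than chow in HFHF control (2.85) and with the gRNA (3.15).

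Cyp2b9 and Cyp2b13 were high and low in the same libraries. Within the gRNA group both had their 2 highest values in replicates 4 and 7 (116 and 93.2 CPM for Cyp2b9, 11.1 and 4.26 CPM for Cyp2b13), and within HFHF control both had their 2 lowest in replicates 2 and 6 (3.29 and 1.71 CPM, 0.244 and 0.267 CPM). Their promoters are shown because they are nearly the same: of the 250 bases before each start in RefSeq (GRCm38.p6), 248 are identical, and capitals mark the positions that differ. The Cyp2b9 window is chr7:26173159-26173408 and the Cyp2b13 window chr7:26061245-26061494, both on the plus strand. Of the 51-base windows of their transcripts, 26.9% for Cyp2b13 and 10.7% for Cyp2b9 recur in other genes, so how their reads were counted is uncertain.
Cyp2b9: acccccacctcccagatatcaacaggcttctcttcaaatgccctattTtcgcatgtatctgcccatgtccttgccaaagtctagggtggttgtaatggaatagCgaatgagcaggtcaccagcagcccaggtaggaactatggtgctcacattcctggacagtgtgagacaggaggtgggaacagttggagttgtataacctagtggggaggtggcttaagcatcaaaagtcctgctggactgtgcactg
Cyp2b13: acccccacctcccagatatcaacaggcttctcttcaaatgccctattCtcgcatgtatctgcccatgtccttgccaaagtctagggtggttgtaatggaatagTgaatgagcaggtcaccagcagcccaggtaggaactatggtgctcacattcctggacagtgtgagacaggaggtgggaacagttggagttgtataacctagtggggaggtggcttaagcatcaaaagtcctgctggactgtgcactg

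Cyp2c was the largest subfamily, with 13 genes on chromosome 19, between 39007019 and 44029208. Its members make epoxides and hydroxy acids from arachidonic acid and oxidise drugs and steroids. On the diet 11 of the 13 fell, Cyp2c38 rose and Cyp2c39 did not pass (0.85, though it did without chow replicate 3, in the fit of only the 2 groups and in DESeq2's Wald test). With the gRNA 5 rose over HFHF control (Cyp2c23, Cyp2c29, Cyp2c37, Cyp2c50 and Cyp2c54) and 8 did not pass. Against chow, 11 of the 13 were lower with the gRNA, all but Cyp2c38 and Cyp2c39, and 9 of them did not overlap with chow. Cyp2c39 was higher there without gRNA replicate 1 or 5 or chow replicate 3 and in DESeq2's Wald test (0.93, adjusted p = 0.0336). Among all genes 28.9% fell on the diet, 19.6% rose with the gRNA and 21.7% were lower with the gRNA than on chow. Every gRNA library lay below every chow library in 8.98% of all genes.

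Among the 5 that rose, Cyp2c54 (40037940 to 40073827, minus strand), an epoxygenase, moved furthest. It was at 37.8, 130 and 230 CPM in gRNA livers, at 4.43, 17.9 and 43.7 CPM in HFHF control livers and at 576, 618, 638, 482 and 335 CPM in chow livers. Both HFHF groups lay below chow, and gRNA replicate 4 (37.8 CPM) fell within the HFHF control range. The log2 fold change was 2.57 for gRNA over HFHF control (SE 0.49, adjusted p = 0.000493, edgeR's quasi-likelihood test), -4.60 for diet (SE 0.56, adjusted p = 1.99e-06) and -2.04 for gRNA over chow (SE 0.49, adjusted p = 0.00281). Cyp2c29, Cyp2c37 and Cyp2c50 rose by 1.33 (SE 0.30), 1.27 (SE 0.42) and 1.30 (SE 0.28) over HFHF control and were at -2.47 (SE 0.33), -3.08 (SE 0.47) and -2.36 (SE 0.31) for diet. In the fit of only the HFHF groups Cyp2c37 did not pass (1.26, adjusted p = 0.0507, edgeR's quasi-likelihood test). In CPM, Cyp2c29 averaged 947 ± 227 with the gRNA, 376 ± 211 in HFHF control and 2085 ± 230 on chow. Cyp2c23, which lies apart at the far end of the cluster, rose by 0.67 (SE 0.21) over HFHF control and was at -1.41 (SE 0.24) for diet. Reads of Cyp2c37 and Cyp2c54 are partly shared with Cyp2c50, with 29.3% and 25.1% of windows found elsewhere.

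Another set of Cyp2c genes was low on the diet and did not pass with the gRNA. Cyp2c67 (39608842 to 39649051, minus strand) was at 115, 151 and 240.3 CPM in gRNA livers, at 104, 147 and 185 CPM in HFHF control livers and at 404, 345, 335, 372 and 507 CPM in chow livers. Both HFHF groups lay below chow and overlapped each other. Its log2 fold change was 0.06 for gRNA over HFHF control (SE 0.15, adjusted p = 0.767, edgeR's quasi-likelihood test), with the sign turned without gRNA replicate 1 or HFHF control replicate 1, -1.38 for diet (SE 0.16, adjusted p = 5.68e-07) and -1.31 for gRNA over chow (SE 0.16, adjusted p = 1.8e-06). Cyp2c40 (39767071 to 39812814, minus strand), which forms a hydroxy acid from arachidonic acid, was at 3.20, 5.87 and 9.65 CPM in gRNA livers, at 3.60, 4.74 and 5.54 CPM in HFHF control livers and at 16.2, 14.5, 20.96, 20.9 and 37.8 CPM in chow livers. Cyp2c69 (39842814 to 39886799, minus strand) was at 0.103, 0.194 and 0.525 CPM in gRNA livers, at 0, 0.112 and 0.223 CPM in HFHF control livers and at 0.956, 1.13, 3.48, 2.82 and 9.73 CPM in chow livers. In both genes chow replicate 5 was the highest of its group, and neither HFHF group overlapped with chow. Cyp2c40 had log2 fold changes of 0.34 (SE 0.22) for gRNA over HFHF control, -2.28 (SE 0.23) for diet and -1.94 (SE 0.22) for gRNA over chow. Cyp2c69 had 0.93 (SE 0.76), -4.78 (SE 0.60) and -3.85 (SE 0.54), where the values against chow became -3.97 and -3.04 without chow replicate 5. Only the chow mean brought Cyp2c69 among the 42, so its being lower than chow is partly fixed by the choice of genes. Between 42.5 and 59.7% of the windows of Cyp2c40, Cyp2c67, Cyp2c68 and Cyp2c69 recur in other genes, so how the counting split reads among these 4 is uncertain.

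Cyp2c55 (39007019 to 39042693, plus strand), which has nearly unique sequence (0.463% of windows shared) and responds to CAR and the pregnane X receptor PXR in mouse, is another. It was at 3.51, 5.56 and 9.74 CPM in gRNA livers, at 4.69, 6.59 and 7.61 CPM in HFHF control livers and at 19.2, 14.7, 18.5, 17.4 and 11.4 CPM in chow livers. Chow lay above both HFHF groups, which overlapped each other. The log2 fold change was -0.11 for gRNA over HFHF control (SE 0.19, adjusted p = 0.66, edgeR's quasi-likelihood test), -1.34 for diet (SE 0.20) and -1.46 for gRNA over chow (SE 0.19). Cyp2c70, the enzyme that makes muricholic acids in mice, averaged 327 ± 122 CPM with the gRNA, 275 ± 38.8 CPM in HFHF control and 586 ± 95.9 CPM on chow. Cyp2c70 was at -1.09 (SE 0.22) for diet, and gRNA over HFHF control (0.25, SE 0.19) did not pass. Cyp2c38 was the only Cyp2c gene higher on the diet (0.94, SE 0.34, adjusted p = 0.024), a call that was lost without chow replicate 1 or 5 or HFHF control replicate 3 (adjusted p up to 0.0574). With the gRNA Cyp2c38 was at -0.67 (SE 0.29, adjusted p = 0.0748), which passed the test without gRNA replicate 4 or HFHF control replicate 6.

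**Figure D4:**
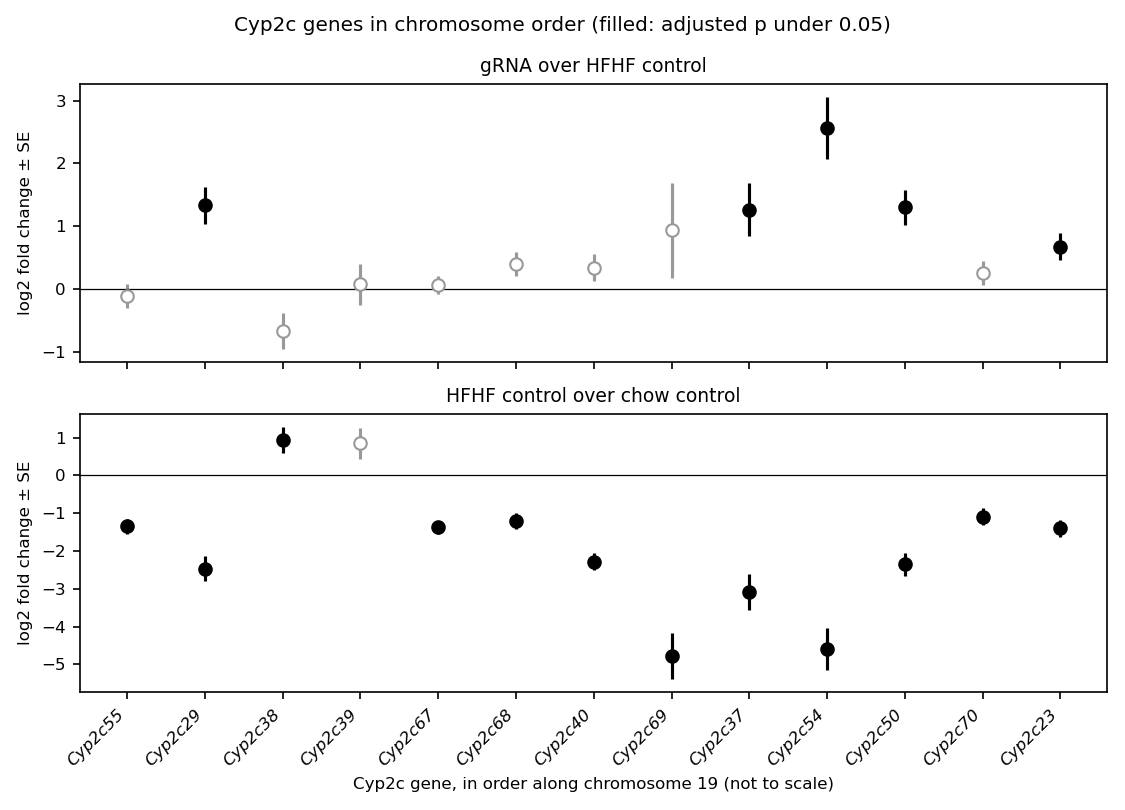
Log2 fold changes with their SE for the 13 Cyp2c genes, ordered along chromosome 19 and not to scale (upper panel gRNA over HFHF control, lower panel HFHF control over chow; filled points at an adjusted p under 0.05). The filled points of the upper panel are Cyp2c29, Cyp2c37, Cyp2c54, Cyp2c50 and Cyp2c23, from 0.67 to 2.57, and the lower panel lies below 0 except for Cyp2c38 and Cyp2c39.

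Promoters of 11 Cyp2c genes were at hand, and the windows of 5 are shown because Cyp2c29 and Cyp2c37 rose with the gRNA and Cyp2c67, Cyp2c68 and Cyp2c70 did not pass with all libraries. In 5 of the 11 (Cyp2c40, Cyp2c67, Cyp2c68, Cyp2c69 and Cyp2c70) the 250 bases before the start hold CAAAGTCCA, a core of binding sites for the hepatocyte factor HNF4, on either strand. These 5 genes were lower on the diet, and none of these 5 was called with the gRNA by edgeR (adjusted p 0.109 to 0.767), though Cyp2c68 passed without gRNA replicate 6 (0.50, adjusted p = 0.0129). In another 5 (Cyp2c29, Cyp2c37, Cyp2c39, Cyp2c50 and Cyp2c55) the nearest match differs by 1 base, and of these 4 were lower on the diet and 3 rose with the gRNA. In Cyp2c38 the nearest match differs by 2 bases. Several of these promoters are close copies of one another (92.8% identity between Cyp2c68 and Cyp2c69), so they are not independent cases. Of all 13 Cyp2c genes 8 did not pass with the gRNA. Among all genes 19.6% were higher with the gRNA and 28.9% lower on the diet. Whether the match bears on the calls was not tested. Capitals mark the nearest match, which starts 109 bases before the start in Cyp2c29 and 125 bases before it in Cyp2c67. The windows, from RefSeq (GRCm38.p6), are chr19:39286835-39287084 for Cyp2c29 and chr19:39992174-39992423 for Cyp2c37, both on the plus strand, and chr19:39649043-39649292 for Cyp2c67, chr19:39741102-39741351 for Cyp2c68 and chr19:40187287-40187536 for Cyp2c70, all on the minus strand.
Cyp2c29: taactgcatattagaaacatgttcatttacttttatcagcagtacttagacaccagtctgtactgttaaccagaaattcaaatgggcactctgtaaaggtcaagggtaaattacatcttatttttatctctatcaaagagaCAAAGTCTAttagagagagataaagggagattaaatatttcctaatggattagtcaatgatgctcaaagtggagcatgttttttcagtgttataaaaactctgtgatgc
Cyp2c37: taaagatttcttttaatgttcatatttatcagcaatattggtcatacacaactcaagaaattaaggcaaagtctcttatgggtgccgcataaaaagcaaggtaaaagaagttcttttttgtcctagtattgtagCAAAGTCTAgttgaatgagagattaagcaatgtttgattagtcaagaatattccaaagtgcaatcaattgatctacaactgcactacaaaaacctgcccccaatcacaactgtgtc
Cyp2c67: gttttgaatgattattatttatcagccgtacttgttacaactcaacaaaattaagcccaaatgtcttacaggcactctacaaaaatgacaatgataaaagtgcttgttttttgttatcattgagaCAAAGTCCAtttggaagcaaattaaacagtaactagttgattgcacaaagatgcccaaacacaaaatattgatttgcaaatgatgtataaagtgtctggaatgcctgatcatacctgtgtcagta
Cyp2c68: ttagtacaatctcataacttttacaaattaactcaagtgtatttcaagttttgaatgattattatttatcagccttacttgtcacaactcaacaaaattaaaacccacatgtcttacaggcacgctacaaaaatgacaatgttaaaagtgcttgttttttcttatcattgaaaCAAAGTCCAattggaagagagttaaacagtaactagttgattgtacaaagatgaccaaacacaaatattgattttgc
Cyp2c70: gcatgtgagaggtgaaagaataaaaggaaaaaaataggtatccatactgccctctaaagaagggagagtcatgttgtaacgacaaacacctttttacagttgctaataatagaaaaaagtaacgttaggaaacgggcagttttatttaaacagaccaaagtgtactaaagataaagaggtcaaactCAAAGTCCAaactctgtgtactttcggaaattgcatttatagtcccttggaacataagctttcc

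Over the 37 of 42 genes with a RefSeq promoter entry (Cyp2c23, Cyp2c54, Cyp2d22, Cyp2g1 and Cyp2u1 had none), CAAAGTCCA was in 8 windows (21.6%), against 0.452% of 27018 genes, and these 8 include Cyp3a11, Cyp3a16 and Cyp3a41b. The TATA letters TATAAA were in 19 of 37 (51.4%), against 14.3% of genes. TGTTTAC, a core of FOXA sites, was in 6 of 37 (16.2%), against 3.54%, and GCGTG, the core to which AHR binds, in 5 of 37 (13.5%), against 30.9%. Each was sought on both strands, with matches of one motif free to overlap those of another. A match is a description of letters, not a bound site.

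All 5 Cyp2d genes, on chromosome 15, were lower on the diet than on chow, by log2 values of -0.99 to -0.52, and 4 of 5 were higher with the gRNA than in HFHF control. The shares of all genes were 28.9% and 19.6%. Cyp2d9, a testosterone 16-alpha-hydroxylase that is higher in male mouse liver, averaged 784 ± 188 CPM with the gRNA, 479 ± 124 CPM in HFHF control and 952 ± 65.1 CPM on chow (0.71, SE 0.15, adjusted p = 0.000962 for gRNA over HFHF control, edgeR's quasi-likelihood test). Cyp2d26 was at 0.30 (SE 0.09), Cyp2d22 at 0.25 (SE 0.09) and Cyp2d40 at 0.39 (SE 0.15) in that comparison. The call of Cyp2d22 was lost without gRNA replicate 1 or 3 or HFHF control replicate 6 (adjusted p up to 0.0601) and with upper-quartile scaling (adjusted p = 0.0762). That of Cyp2d40 was lost in 14 of 20 fits that left out 1 library (adjusted p up to 0.105) and with DESeq2 size factors, upper-quartile scaling, no low-count filter, a stricter one or only the 2 groups (adjusted p 0.0522 to 0.0922). Cyp2d10 (0.23, SE 0.10, adjusted p = 0.0593) did not pass, though it did without gRNA replicate 4, 7 or 8 or HFHF control replicate 3 or 5. Against chow, Cyp2d10, Cyp2d22 and Cyp2d40 were lower with the gRNA. Of these, Cyp2d22 (-0.27, SE 0.09) lost the call in 5 fits and Cyp2d40 (-0.44, SE 0.17) in 7 fits that left out 1 library, and both lost it with upper-quartile scaling, without the low-count filter and in the fit of only the 2 groups. Cyp2d26 (-0.23) passed there without gRNA replicate 4 or HFHF control replicate 6 and in DESeq2's Wald test. In Cyp2d10 and Cyp2d9, 35.1% and 21.3% of windows recur in other genes, so how their reads were counted is uncertain.

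Cyp2e1 (chromosome 7, 140763739 to 140774987, plus strand), which oxidises ethanol, acetone and paracetamol in pericentral hepatocytes, was at 4825, 5433 and 7444 CPM in gRNA livers, at 2199, 3147 and 5263 CPM in HFHF control livers and at 7446, 7766, 7366, 7316 and 5552 CPM in chow livers. HFHF control lay below chow, and the gRNA libraries overlapped both groups, HFHF control only through its replicate 5. The log2 fold change was 0.79 for gRNA over HFHF control (SE 0.16, adjusted p = 0.000425, edgeR's quasi-likelihood test), -1.10 for diet (SE 0.18, adjusted p = 1.66e-05) and -0.31 for gRNA over chow (SE 0.17, adjusted p = 0.158). Exact permutation gave p = 0.000777, 0.00253 and 0.0342 for these, unadjusted.

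Cyp2f2 (chromosome 7, 27119909 to 27133660, plus strand), a periportal enzyme that activates naphthalene, was also lower on the diet. With the gRNA Cyp2f2 was higher than in HFHF control. It was at 566, 746 and 825 CPM in gRNA livers, at 386, 514 and 600.0 CPM in HFHF control livers and at 1114, 1070.2, 1006, 952 and 1107 CPM in chow livers. Chow lay above both HFHF groups, and 2 gRNA libraries lay within the HFHF control range. Fold changes were 0.52 (SE 0.10, adjusted p = 0.000232, edgeR's quasi-likelihood test) for gRNA over HFHF control, -1.07 (SE 0.11, adjusted p = 4.85e-08) for diet and -0.55 (SE 0.11, adjusted p = 0.000313) for gRNA over chow, on the log2 scale. The pericentral Cyp2e1 and the periportal Cyp2f2 had log2 changes of the same sign in each comparison, but for gRNA over chow only Cyp2f2 passed. Whether place in the lobule bears on these changes was not tested.

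In the Cyp2j subfamily on chromosome 4, which makes epoxides of arachidonic acid, all 3 genes were lower on the diet and 2 were higher with the gRNA. The shares of all genes were 28.9% and 19.6%. Cyp2j5 (96628773 to 96664154, minus strand) was at 441, 513 and 598 CPM in gRNA livers, at 302, 401 and 456 CPM in HFHF control livers and at 721, 775, 761, 708 and 685 CPM in chow livers. Chow lay above both HFHF groups, which overlapped at a single gRNA library, replicate 8. Its log2 fold change was 0.46 for gRNA over HFHF control (SE 0.09, adjusted p = 0.000194, edgeR's quasi-likelihood test), -0.95 for diet (SE 0.10) and -0.49 for gRNA over chow (SE 0.09). Cyp2j6 (96516138 to 96553661, minus strand) was at 80.1, 85.2 and 97.5 CPM in gRNA livers, at 56.0, 63.4 and 71.4 CPM in HFHF control livers and at 87.8, 82.7, 82.0, 70.0 and 68.1 CPM in chow livers. The gRNA and HFHF control libraries did not overlap, and the chow libraries spanned the gap. Fold changes of Cyp2j6 were 0.43 (SE 0.06, adjusted p = 1.55e-05) for gRNA over HFHF control, -0.29 (SE 0.07, adjusted p = 0.00143) for diet and 0.14 (SE 0.07, adjusted p = 0.111) for gRNA over chow. The last passed without chow replicate 1 and with upper-quartile scaling. Cyp2j9 was at 0.05 (SE 0.12) for gRNA over HFHF control, a sign that turned with upper-quartile scaling, and its falls against chow (-0.39, SE 0.14, in HFHF control and -0.34, SE 0.13, with the gRNA) lost their calls in 3 and 13 of 20 fits that left out 1 library and with upper-quartile scaling, the second also without the low-count filter and with a stricter one.

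Of the single-gene subfamilies, Cyp2r1, a vitamin D 25-hydroxylase, was lower than chow in HFHF control (-0.74, SE 0.10) and with the gRNA (-0.53, SE 0.09) and did not pass between them (0.20, SE 0.09), though it did without HFHF control replicate 2 or gRNA replicate 6, 7 or 8 (adjusted p 0.0331 to 0.0469). It averaged 11.9 ± 1.79 CPM with the gRNA, 10.3 ± 1.05 CPM in HFHF control and 17.1 ± 0.653 CPM on chow. Cyp2u1, a hydroxylase of long-chain fatty acids, rose with the gRNA (0.85, SE 0.20, adjusted p = 0.00267, edgeR's quasi-likelihood test), fell on the diet (-1.23, SE 0.23) and did not pass against chow (-0.38, SE 0.22). Cyp2g1, known from olfactory tissue, was near the level of detection at 0.565 ± 0.215 CPM with the gRNA, 0.264 ± 0.222 CPM in HFHF control and 1.76 ± 0.684 CPM on chow. Its rise with the gRNA (1.08, SE 0.41, adjusted p = 0.0417) was lost in 9 of 20 fits that left out 1 library, with upper-quartile scaling and without the low-count filter.

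Cyp3a genes lie on chromosome 5, and on the diet only Cyp3a13 and Cyp3a25 of the 7 fell. That count lies near the 28.9% of all genes that were lower on the diet. Cyp3a11 (145854426 to 145879964, minus strand), the main PXR-induced drug oxidase of mouse liver, was at 2611, 4628 and 7868 CPM in gRNA livers, at 3039, 4279 and 5387 CPM in HFHF control livers and at 6393, 5526, 5141, 5929 and 5444 CPM in chow livers. All groups overlapped, and the gRNA libraries spread most. No comparison passed (0.23, SE 0.17, adjusted p = 0.312 for gRNA over HFHF control; -0.43, SE 0.19, adjusted p = 0.0617 for diet; -0.20, SE 0.19, adjusted p = 0.408 for gRNA over chow; edgeR's quasi-likelihood test), though the diet value did without gRNA replicate 4 or 6 or HFHF control replicate 3 and in the fit of only the 2 groups (-0.42, adjusted p = 0.00795), and its exact permutation p was 0.00884, unadjusted. Cyp3a13 (137892932 to 137921619, minus strand) was at 101, 130 and 142 CPM in gRNA livers, at 95.8, 131 and 134 CPM in HFHF control livers and at 163, 192, 188, 221 and 171 CPM in chow livers. Both HFHF groups lay below chow and overlapped each other. Cyp3a13 had log2 fold changes of 0.07 (SE 0.09) for gRNA over HFHF control, -0.64 (SE 0.10) for diet and -0.57 (SE 0.10) for gRNA over chow.

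With the gRNA 4 of the 7 Cyp3a genes rose over HFHF control, against 19.6% of all genes. Cyp3a25 averaged 803 ± 120 CPM with the gRNA, 484 ± 130 CPM in HFHF control and 884 ± 111 CPM on chow (0.73, SE 0.14, adjusted p = 0.000256 for gRNA over HFHF control, edgeR's quasi-likelihood test). Its near neighbour Cyp3a59 was at 0.83 (SE 0.28), a call lost without gRNA replicate 3 or 4 or HFHF control replicate 2, 6 or 7 (adjusted p up to 0.0621), without the low-count filter and in the fit of only the 2 groups. In Cyp3a25 and Cyp3a59, 26.0% and 29.1% of windows recur in other genes, mostly in each other. How reads were split between them is uncertain. Cyp3a57 was at 1.45 ± 0.496 CPM with the gRNA, 0.610 ± 0.382 CPM in HFHF control and 0.282 ± 0.228 CPM on chow. It was the only one of the 42 with every gRNA library above every chow library (2.30, SE 0.46, adjusted p = 0.000415, or 2.93 without chow replicate 2). Only its gRNA mean brought Cyp3a57 among the 42, so its being high in that group is partly fixed by the choice of genes. For diet, Cyp3a57 was at 1.06 (SE 0.50, adjusted p = 0.077), which passed without chow replicate 2 (1.70) or HFHF control replicate 3 or 5. Cyp3a41b, a female-predominant gene, was at 0.67 (SE 0.24), but 93.4% of its windows are shared with Cyp3a41a, and the call was lost in 7 of 20 fits that left out 1 library. Cyp3a16, known from newborn liver, passed no test.

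**Figure D5:**
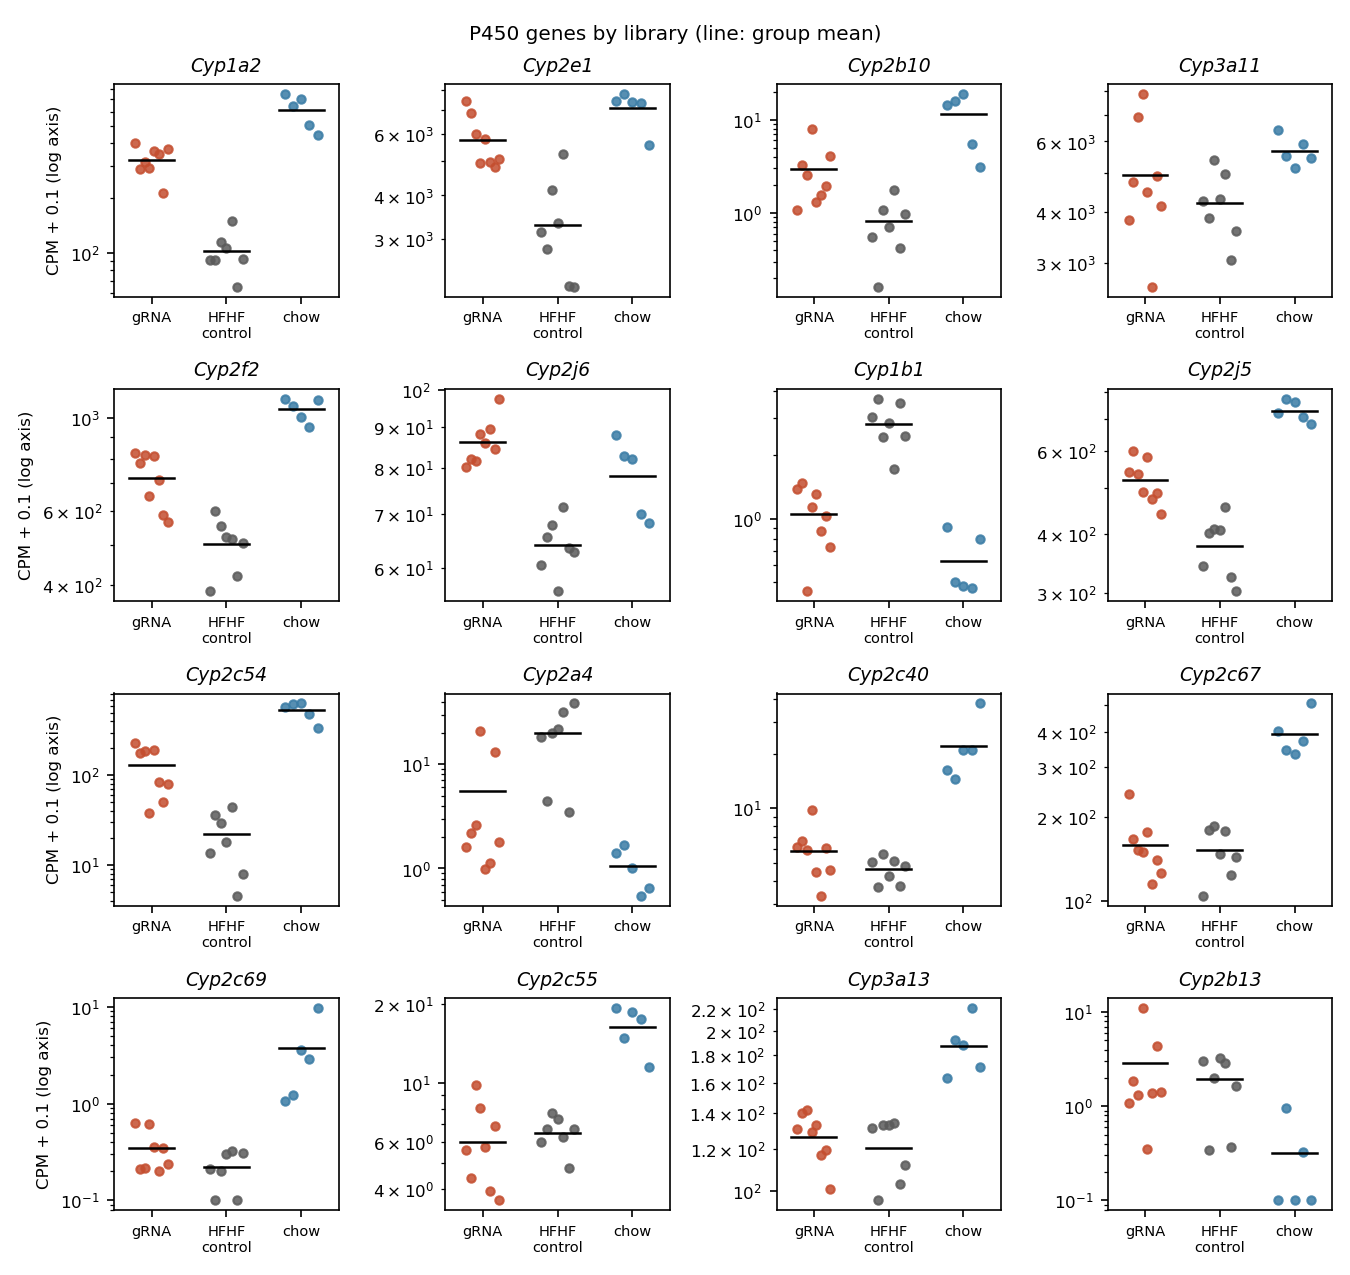
CPM + 0.1 by library (log axis) for the 16 P450 genes given by library, with gRNA in red at the left, HFHF control in grey in the middle and chow in blue at the right of each panel, and a line at each group mean. Cyp1a2 separates all 3 groups, from 64.6 CPM in HFHF control to 749 CPM on chow, while Cyp3a11 overlaps in all of them.

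Genes that serve or control P450 enzymes were taken from lists and read in the same fit. The electron donor Por, which every microsomal P450 needs, was at 83.5 to 142 CPM with the gRNA, 59.1 to 157 CPM in HFHF control and 89.9 to 108 CPM on chow, and passed no test. Beside the counts that follow, 19.6% of all genes were higher and 19% lower with the gRNA. On the diet 28.1% of all genes were higher and 28.9% lower. Of 6 genes on a list of P450 electron donors and partners, 3 rose and 1 fell with the gRNA, and 1 fell on the diet. Pgrmc2, on that list but a heme chaperone and no electron donor, rose with the gRNA by 0.54 (SE 0.09, adjusted p = 6.31e-05, edgeR's quasi-likelihood test). The cytochrome b5 genes Cyb5a (0.26, SE 0.09) and Cyb5b (0.21, SE 0.08) and the reductase gene Cyb5r3 (-0.25, SE 0.09) lost their calls in 7, 16 and 4 of 20 fits that left out 1 library. Of 10 genes of heme synthesis and breakdown, 3 rose with the gRNA and 7 did not pass, and 1 rose and 4 fell on the diet. Fech, which places iron into heme, was at 0.36 (SE 0.07) with the gRNA and -0.40 (SE 0.08) for diet, Urod was at 0.19 (SE 0.06) with the gRNA, and Cpox was at 0.22 (SE 0.08), a call lost in 8 such fits.

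Of 18 tested regulators of P450 genes, 5 rose with the gRNA and 13 did not pass (median 0.19), and 1 rose and 11 fell on the diet (median -0.44). Over all genes 19.6% were higher and 19% lower with the gRNA, and 28.1% higher and 28.9% lower on the diet. Ppara, the receptor for fatty acids, rose by 0.79 (SE 0.10, adjusted p = 4.29e-06, edgeR's quasi-likelihood test) with the gRNA and did not pass for diet (-0.02, SE 0.12). Nr1i3, which encodes CAR, was at 99.2, 148 and 187 CPM in gRNA livers, at 44.9, 75.7 and 169.9 CPM in HFHF control livers and at 213, 266, 234, 208 and 146 CPM in chow livers. All groups overlapped, in HFHF control through replicate 5. Its log2 fold change was 0.80 for gRNA over HFHF control (SE 0.23, adjusted p = 0.00989) and -1.35 for diet (SE 0.25, adjusted p = 0.000173). The bile acid receptor gene Nr1h4 was at 0.32 (SE 0.07) and -0.35 (SE 0.08), and the glucocorticoid receptor gene Nr3c1 at 0.28 (SE 0.05) and -0.46 (SE 0.06), in the same order. Nr1i2, which encodes PXR, passed no test (0.09, SE 0.08, and -0.05, SE 0.09).

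Among 10 targets of CAR and PXR that are no P450 genes, 3 rose and 2 fell with the gRNA, and 2 rose and 3 fell on the diet. These counts lie near the shares of all genes, 19.6% and 19% with the gRNA and 28.1% and 28.9% on the diet. The carboxylesterase gene Ces2a was at 0.89 (SE 0.17) with the gRNA and -2.36 (SE 0.19) for diet, the glucuronosyltransferase gene Ugt1a1 at 0.43 (SE 0.10) and -0.97 (SE 0.12), and the uptake transporter gene Slco1a4 at 1.27 (SE 0.33) and -0.96 (SE 0.37), where the diet call of Slco1a4 was lost in 8 of 20 fits that left out 1 library. Gadd45b was at -0.96 (SE 0.34) with the gRNA, lost in 5 such fits. Of 3 tested AHR targets outside the family, Tiparp rose with the gRNA (0.45, SE 0.13) and did not pass for diet, Nqo1 was at -0.55 (SE 0.22, adjusted p = 0.053) with the gRNA and rose on the diet (1.42, SE 0.27), and Ugt1a6a was at 0.23 (SE 0.12) and fell on the diet (-0.85, SE 0.13).

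Genes with a known place in the liver lobule were read as well. Beside their counts and those of the cell markers, 19.6% of all genes were higher and 19% lower with the gRNA. On the diet 28.1% were higher and 28.9% lower. The 2 of 9 pericentral genes that rose lie near that share of all genes. Of 9 pericentral genes outside the family, 2 rose with the gRNA and 7 did not pass (median -0.04), and 4 fell on the diet (median -0.52): the glutamate transporter gene Slc1a2 was at 1.91 (SE 0.17) and -1.33 (SE 0.19), and the ornithine aminotransferase gene Oat at 1.24 (SE 0.18) and -1.45 (SE 0.20). Of 6 periportal genes, 2 rose with the gRNA and 4 did not pass (median 0.21), and 5 fell on the diet (median -0.85): the histidase gene Hal was at 0.81 (SE 0.19) and -2.03 (SE 0.22), and the urea cycle gene Cps1 at 0.59 (SE 0.17) and -1.56 (SE 0.19). Hepatocyte markers also shifted, with 5 of 9 higher and 1 lower with the gRNA (median 0.25) and 6 lower on the diet (median -0.42). Markers of other cells moved beside them: 4 of 8 macrophage markers fell and 1 rose with the gRNA while 5 rose on the diet, and 4 of 4 tested cholangiocyte markers fell with the gRNA while 3 rose on the diet. Summed levels were 181 to 394 CPM for macrophages and 30.5 to 80.5 CPM for cholangiocytes in gRNA, 211 to 439 CPM and 93.0 to 227 CPM in HFHF control and 107 to 207 CPM and 24.7 to 35.7 CPM on chow. Endothelial markers, with 3 of 6 higher with the gRNA and 1 higher and 2 lower on the diet, summed to 126 to 222 CPM, 119 to 177 CPM and 131 to 161 CPM in gRNA, HFHF control and chow, and the 5 red blood cell markers to 262 to 640.3 CPM, 293 to 803 CPM and 310 to 490 CPM, with 1 higher with the gRNA and 1 higher and 1 lower on the diet. The part of any of these shifts in cell markers in the P450 results was not tested.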

How the data were processed

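Liver mRNA of 20 libraries was measured by bulk sequencing. Per the labels' protocols, Trizol and magnetic beads served for extraction, a poly(A) mRNA kit and adapters with molecular identifiers for the libraries, and reads were single-end. The deposited table holds expected counts per gene, estimates that may be fractional (77.8% of the values from 1 upward were whole). The build is GRCm38, per the submitters' processing notes. No source used here names the aligner, counter, annotation or strand setting, or says whether reads were collapsed by identifier, without which PCR copies would be counted as reads.

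Counts were rounded. The 22 construct features (7.0 counts, 2.15e-06% of the total) and 1 column that matched no label were left out. Gene names came from GENCODE M21, which matched 32325 of 32400 genes. After edgeR's filterByExpr 13667 genes were tested in 1 fit of all 3 groups (edgeR 4.0.16 in R 4.3.3, TMM scaling, estimateDisp, robust glmQLFit, glmQLFTest). Adjusted p-values are Benjamini-Hochberg values over all 13667 genes with a threshold of 0.05, fold changes are log2 with SE, and CPM uses the TMM-adjusted library size. Exact two-sided permutation tests compared mean log2(CPM + 0.5) over 6435, 792 and 1287 regroupings for gRNA over HFHF control, diet and gRNA over chow. The script was tested on simulated data.

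Windows of 51 bases of each gene's transcripts were compared with all other transcripts to find shared sequence. The P450 genes, the companion lists and the motifs were chosen with earlier results of these data known, so no test was made over a list. Values by library are given for Cyp1a2, Cyp2e1, Cyp2b10, Cyp3a11 and Cyp2f2, for up to 5 genes of smallest p in each comparison and for the largest rise and fall in each. Of the lists, up to 4 genes of smallest p with the gRNA are named, and any other gene was chosen after its values were seen. Alternatives were DESeq2 (1.42.0) size factors and Wald test, upper-quartile scaling, other low-count filters, fits of only the 2 groups compared, raw library sizes and leaving out each library. Replicate numbers follow accession order and pair no samples.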

Additional observations from a re-analysis of the deposited data

Results flagged for a closer look

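For the 16 P450 genes given by library and for their summed level with the other members, a library was sought that stands apart from the rest of its group. Among 51 groups tested 6 had one. For independent groups with normally spread values, chance gives about 1 in 20. CPM was used here without logs and the 51 groups share libraries, so the 6 cannot be set against that rate.

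Chow replicate 5 had the lowest Cyp2e1 level of its group (5552 CPM, group median 7366 CPM), the highest Cyp2c40 level (37.81 CPM, median 20.9 CPM) and the highest Cyp2c69 level (9.726 CPM, median 2.82 CPM). It was also the lowest chow library in 23 of the 42 genes. In the gRNA group, replicate 4 had the highest Cyp2b10 level (7.91 CPM, median 2.16 CPM) and the highest Cyp2b13 level (11.06 CPM, median 1.31 CPM). Chow replicate 2 had the highest Cyp2b13 level of its group (0.8629 CPM, median 0 CPM).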

How the results depend on the processing

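No paired analysis was possible because the labels give no replicate numbers, and numbers in accession order pair no samples. Counts of P450 genes called kept within 1.5 times under other scaling, filters and fits, with these exceptions. The number lower with the gRNA than in HFHF control was 1, against 2, without a low-count filter and in the fit of only those 2 groups, and the number higher with the gRNA than on chow was 5, against 3, in DESeq2's Wald test. The median P450 sum on chow was 23952 CPM with raw library sizes, against 26781 CPM. In gRNA over HFHF control, Cyp2j9 turned to -0.011 with upper-quartile scaling.

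Leaving out 1 library at a time gave 16 to 23 P450 genes higher and 1 to 3 lower with the gRNA than in HFHF control, 2 to 6 higher and 28 to 30 lower on the diet, and 2 to 4 higher and 20 to 24 lower with the gRNA than on chow. The number lower with the gRNA was 1 without gRNA replicate 1, 2, 3, 5, 6 or 8 or HFHF control replicate 5 or 7, where Cyp2a4 was lost, and the number higher on the diet was 2 without chow replicate 1 or 5. Over all genes 4632 to 5330, 7204 to 7867 and 5152 to 5921 were called in these comparisons. Log2 values of genes that changed sign, none of them called, ranged in gRNA over HFHF control from -0.056 to 0.12 (Cyp2c67), -0.021 to 0.10 (Cyp2j9), -0.027 to 0.38 (Cyp2a5), -0.16 to 0.23 (Cyp2c39), -0.13 to 0.51 (Cyp2b9), -0.21 to 0.77 (Cyp2b13) and -0.061 to 0.023 (Cyp2a12), in diet from -0.34 to 0.046 (Cyp2a5) and -0.025 to 0.32 (Cyp3a16), and in gRNA over chow from -0.11 to 0.032 (Cyp1a1) and -0.065 to 0.15 (Cyp2a5). The causes were not tested. Depth limits genes near 1 CPM, such as Cyp2c69, Cyp2b13 and Cyp2g1, where a library holds few counts, and counting intervals would cover counting error only.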

Other observations

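Livers within each HFHF group differed among themselves in genes with a sex bias in mouse liver. The labels do not give the sex of the animals. Hsd3b5, a steroid dehydrogenase gene that is higher in males, was at 86.5, 4.94, 14.7, 0.129, 112, 21.8, 0.247 and 1.26 CPM in gRNA replicates 1 to 8, at 0.0515, 0.279 and 7.38 CPM (lowest, median and highest) in HFHF control and at 277, 190.2, 214, 233 and 238 CPM in the 5 chow libraries. Serpina1e, another male-biased gene, was at 1500, 401, 606, 15.3, 2190, 733, 37.6 and 66.0 CPM in gRNA replicates 1 to 8, at 35.2, 60.2 and 319 CPM in HFHF control and at 3935, 2015, 3532, 5247 and 6684 CPM on chow. Replicates 4, 7 and 8 had the 3 lowest values of both genes within the gRNA group, and replicates 4 and 7 had the 2 highest values of Cyp2a4, Cyp2b9 and Cyp2b13 and the 2 lowest of Cyp2c54 (37.8 and 50.5 CPM). Cyp3a41b, also female-predominant, did not follow this, with its highest gRNA value in replicate 3 (1.88 CPM). Within HFHF control, replicates 2 and 6 had the 2 highest values of Hsd3b5 (7.38 and 1.01 CPM) and Serpina1e (319 and 99.4 CPM). The same replicates had the 2 lowest values of Cyp2b9 and Cyp2b13. Cyp2c54 went the other way there, with its lowest HFHF control value in replicate 6 (4.43 CPM).

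In the fit, Hsd3b5 was at 4.55 (SE 1.21) for gRNA over HFHF control and -7.49 (SE 1.30) for diet, Serpina1e at 2.80 (SE 0.88) and -5.42 (SE 1.03), and Nudt7 at 1.03 (SE 0.18) and -2.01 (SE 0.20). Without HFHF control replicate 2 Hsd3b5 was at 6.38 and -9.31 and Serpina1e at 3.45 and -6.08, and without gRNA replicate 5 Hsd3b5 was at 3.82 for gRNA over HFHF control. Mup20, a male-specific urinary protein gene, went the other way, at -0.82 (SE 0.25) and 1.31 (SE 0.30). Of the 6 male-biased genes listed, 3 rose and 1 fell with the gRNA, and 1 rose and 5 fell on the diet. Over all genes 19.6% were higher and 19% lower with the gRNA, and 28.1% higher and 28.9% lower on the diet. Of 6 genes listed as female-biased 2 were tested, and the one that passed, Sult2a8 (2.91, SE 0.40, with the gRNA and -4.11, SE 0.44, for diet), is a bile acid sulfotransferase gene whose place on that list is uncertain.

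Within HFHF control, replicate 5 had the highest level of its group in 25 of the 42 P450 genes and replicate 6 the lowest in 19. Below the level that chose the genes, Cyp2d12 was at 0.801 ± 0.324 CPM with the gRNA, 0.441 ± 0.170 CPM in HFHF control and 0.671 ± 0.189 CPM on chow.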
